A study of Homo sapiens with 12 samples.

Results

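SELE, VCAM1, ICAM1 and ICAM4 encode cell adhesion molecules of the kind displayed by activated endothelium, and their mRNA was followed in macrophage-like THP-1 cells. The 4 genes were chosen by name, with earlier results of these data known. All 4 were present among the 3281 genes that the authors listed as changed by lipopolysaccharide (LPS, a bacterial outer membrane component) in either genotype. THP-1 is an established human monocytic leukaemia line. The 12 libraries were 3 each of wild-type cells at 0 hr, wild-type cells at 3 hr, NFKB1 S80A cells at 0 hr and NFKB1 S80A cells at 3 hr. S80A replaces serine 80 of the NF-κB subunit p50, made from NFKB1, with alanine, and the comparison asked how LPS-induced transcription depends on that serine. All groups had been differentiated with the phorbol ester PMA at 25 ng/ml for 72 hours and rested for 4 days. The 3 hr groups then received LPS at 10 ng/ml, and the 0 hr groups are labelled with no LPS time. The labels name no clone and no editing method, so genotype and cell line cannot be told apart. They also do not call the replicates separate cultures, so the p-values measure the spread between these libraries, which may be technical.

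Adhesion molecules of this kind stop white blood cells at sites of inflammation. E-selectin, the product of SELE, is a lectin that catches rolling leukocytes through sialylated, fucosylated sugars. VCAM-1 and the ICAMs belong to the immunoglobulin superfamily and bind integrins, VCAM-1 through α4 integrins and ICAM-1 through the leukocyte integrins LFA-1 and Mac-1. ICAM-4 carries the Landsteiner-Wiener blood group on red cells and also binds leukocyte integrins. SELE, VCAM1 and ICAM1 are textbook NF-κB targets in endothelial cells, and ICAM1 is also known as an induced gene of macrophages.

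The promoters are shown because NF-κB subunits are the factors altered in this study and because all 4 genes were listed as rising. Each line holds the 250 bases before the RefSeq start of transcription on GRCh38.p14, written 5′ to 3′ on the strand of the gene. Capitals mark the NF-κB type motifs GGGATTTCC and GGAAATTCC, and a TATAAA on the strand of the gene within 40 bases of the start. The windows are chr1:169734080-169734329 on the minus strand for SELE, chr1:100719492-100719741 on the plus strand for VCAM1, and chr19:10270870-10271119 and chr19:10286705-10286954 on the plus strand for ICAM1 and ICAM4.
SELE: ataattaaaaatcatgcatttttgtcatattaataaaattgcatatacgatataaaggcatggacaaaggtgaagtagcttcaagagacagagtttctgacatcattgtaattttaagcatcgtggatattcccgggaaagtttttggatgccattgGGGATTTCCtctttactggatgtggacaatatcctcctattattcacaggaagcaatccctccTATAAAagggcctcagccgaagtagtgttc
VCAM1: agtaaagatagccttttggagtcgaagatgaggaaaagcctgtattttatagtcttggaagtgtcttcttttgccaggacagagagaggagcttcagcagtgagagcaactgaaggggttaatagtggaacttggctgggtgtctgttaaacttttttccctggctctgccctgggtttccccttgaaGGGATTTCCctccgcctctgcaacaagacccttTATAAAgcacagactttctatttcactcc
ICAM1: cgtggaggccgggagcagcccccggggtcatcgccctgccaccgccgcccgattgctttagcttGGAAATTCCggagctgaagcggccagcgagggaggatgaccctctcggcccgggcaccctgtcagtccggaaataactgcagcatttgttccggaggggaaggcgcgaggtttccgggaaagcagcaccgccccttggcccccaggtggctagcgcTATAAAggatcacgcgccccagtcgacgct
ICAM4: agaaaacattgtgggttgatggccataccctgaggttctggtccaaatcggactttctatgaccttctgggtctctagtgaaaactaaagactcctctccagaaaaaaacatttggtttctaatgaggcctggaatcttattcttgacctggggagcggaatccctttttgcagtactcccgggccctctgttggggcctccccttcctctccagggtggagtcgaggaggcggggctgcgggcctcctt

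Motifs were searched on both strands, and they were chosen with the promoters in view. SELE and VCAM1 shared GGGATTTCC, which began 93 bases upstream of the start in SELE and 62 bases upstream in VCAM1, and which 0.327% of 35116 promoter windows held. ICAM1 held GGAAATTCC from 186 bases upstream, found in 0.413% of windows. A looser NF-κB consensus, GGG and CC with any 5 bases between them, overlaps the first motif in SELE and VCAM1 and was in all 4 windows but also in 54.4% of all windows. TATAAA began 30 bases upstream in SELE and in ICAM1 and 29 bases upstream in VCAM1, and 10.7% of windows held it somewhere. ICAM4 had neither exact NF-κB type motif nor TATAAA in this window, and no window of the 4 held the AP-1 type motif TGANTCA, present in 6.57% of all windows. These are matches of letters in the reference sequence, which say nothing of binding in these cells.

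In GENCODE 29 on GRCh38, SELE (ENSG00000007908.15) spans 169722641 to 169764705 on the minus strand of chromosome 1, and VCAM1 (ENSG00000162692.11) spans 100719742 to 100739045 on the plus strand of that chromosome. ICAM1 (ENSG00000090339.8) and ICAM4 (ENSG00000105371.9) are neighbours on the plus strand of chromosome 19, from 10270835 to 10286615 and from 10286967 to 10288522. Only 351 bases lie between the end of ICAM1 and the start of ICAM4, and ICAM5 follows 1458 bases after ICAM4. An antisense RNA, AC011511.5 (ICAM4-AS1), covers all of ICAM4 and the end of ICAM1 on the minus strand, and 1 more, AC011511.2, covers most of ICAM1. SELE lies within the span of C1orf112 on the opposite strand and overlaps the RNA gene AL021940.1 on its own strand. The libraries were stranded, but the strand setting of the counting is not given in the sources used here, so reads of ICAM1, ICAM4 and SELE are uncertain by any share that belongs to these partners.

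Expression is given as scaled reads, the read count of a gene divided by 1 size factor per library. Each library held between 1924562 and 5789918 reads on the 3281 listed genes, which is not the full depth. Counting intervals and floors given for reads cover counting error only. Being bulk RNA, the libraries do not tell fewer expressing cells from less RNA per cell. The authors' call of an LPS response required an adjusted p below 0.01 together with a log2 fold change beyond 1 in either direction.

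All 4 genes rose with LPS in both genotypes in the authors' deposited tables. The number of genes the authors tested was estimated as 17486 from their raw and adjusted p-values, and shares of tested genes rest on that estimate. Of these the authors called 8.24% higher and 5.11% lower in wild-type cells. In S80A cells they called 8.67% higher and 5.67% lower. Presence in these tables was a condition for being measured here, so the count of 4 is given as a description. The median log2 fold change of the 4 genes was 4.41 for wild type and 5.51 for S80A, against 1.37 and 1.30 over all listed genes. ICAM1 rose most in number of reads, VCAM1 most in fold in wild-type cells and SELE most in fold in S80A cells.

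**Figure D1:**
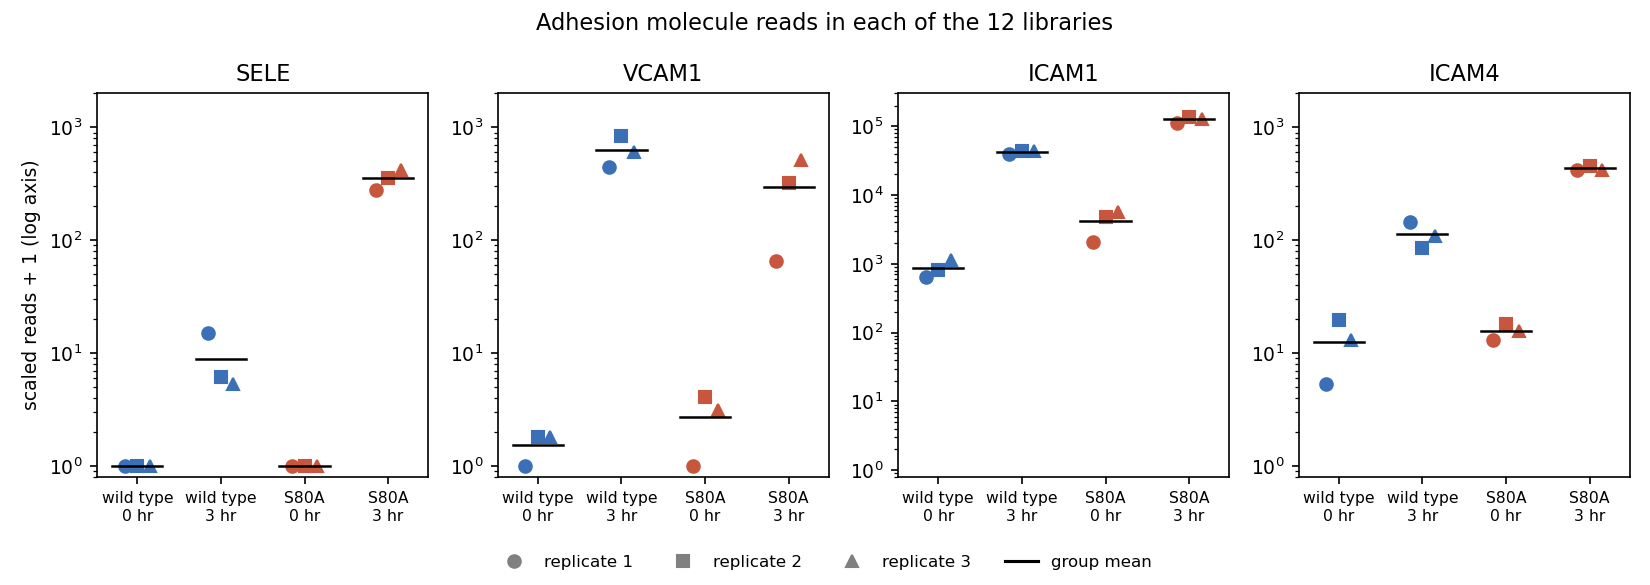
Scaled reads plus 1, on a log axis, of SELE, VCAM1, ICAM1 and ICAM4 in each library, by group, with symbols for the replicate number and a line at the group mean. The ICAM1 panel has a longer axis. SELE reached 277 to 421 scaled reads in S80A cells at 3 hr against 4.28 to 14.1 in wild-type cells, while VCAM1 overlapped between the genotypes at that time.

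SELE, which encodes E-selectin, was without a read in all 6 libraries at 0 hr and was induced far more in S80A than in wild-type cells. In wild-type cells at 3 hr it was at 14.1, 5.19 and 4.28 scaled reads in replicates 1, 2 and 3, from 12, 5 and 4 reads. In S80A cells at 3 hr it was at 277, 359 and 421 scaled reads, from 247, 312 and 351 reads. Every S80A library was above every wild-type library, and the lowest S80A value was that of replicate 1.

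Against a floor of 3 reads over the 0 hr group, SELE was 9.26-fold higher after LPS in wild-type cells and 379-fold higher in S80A cells. The floor allows for counting error at 0 hr alone, not at 3 hr, so these are not strict lower bounds. The authors' deposited table gave log2 fold changes of 3.36 in wild-type cells (authors' adjusted p = 5.58e-05) and 8.62 in S80A cells (authors' adjusted p = 8.37e-32). By that value SELE stood 369th of 1441 rising genes in wild-type cells and 10th of 1516 in S80A cells.

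At 3 hr SELE averaged 7.86 ± 5.42 scaled reads for wild type and 352 ± 72.2 for S80A (SD, n = 3), a ratio of 44.8. The ratio of reads per size factor was 45.9 with an exact 95% counting interval of 29.8 to 74.5. On the log2(scaled reads + 1) scale the difference was 5.46 with a 95% interval of 4.46 to 6.46 (limma adjusted p = 0.000756), and it was 5.62 without S80A replicate 1. Among all 3281 genes this was the 3rd largest positive difference at 3 hr. The test of the LPS response gave the same 5.46 log2, since no library had a read at 0 hr. Its limma adjusted p was 7.17e-05, and the difference was the 2nd largest of 1562 genes in both tables. Libraries without a read add no spread, so this smaller p-value is not stronger evidence than that at 3 hr. The adjusted p of the response ranged from 9.41e-07 to 1.00 over 23 alternatives, and the highest came from edgeR, while DESeq2 on the same reads gave 5.33 log2 with 0.0342. In edgeR the 3 hr difference itself, 5.49 log2, had an adjusted p of 0.000244.

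VCAM1, the vascular ligand of α4 integrins, rose from almost no reads in both genotypes, and the difference in its induction did not pass the test. At 0 hr wild-type libraries had 0, 1 and 1 reads and S80A libraries 0, 4 and 2 reads in replicates 1, 2 and 3. At 3 hr it was at 448, 846 and 603 scaled reads in wild-type cells and at 63.9, 322 and 510 in the S80A libraries. The highest S80A library lay above the lowest wild-type library, so the genotypes overlapped, although S80A was below wild type at each replicate number. S80A replicate 1 was lower than the other two S80A libraries.

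In wild-type cells VCAM1 went from 2 reads to 1759 over the 3 libraries, a ratio per size factor of 1164 with a counting interval of 322 to 9619. In S80A cells it went from 6 reads to 762, a ratio of 159 with an interval of 72.6 to 434. The authors' deposited table gave log2 fold changes of 7.99 (authors' adjusted p = 2.83e-31) and 6.22 (authors' adjusted p = 2.90e-21), the 20th and 65th largest of the rising genes. A DESeq2 fit of the reads gave larger values, 10.2 and 7.37 log2.

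VCAM1 averaged 632 ± 201 scaled reads for wild type and 299 ± 224 for S80A at 3 hr (SD, n = 3). The difference, S80A minus wild type, was -1.47 log2 with a 95% interval of -3.23 to 0.29 (limma adjusted p = 0.143), and -0.59 without S80A replicate 1. Its LPS response differed by -2.13 log2, from -4.32 to 0.07 (limma adjusted p = 0.272, range 0.0162 to 0.489 over 23 alternatives). Without S80A replicate 1 at both times the response differed by -1.86 log2 with an adjusted p of 0.0473, without it at 3 hr alone by -1.25 with 0.375, and without it at 0 hr alone by -2.74 with 0.115. With all 12 libraries the call was made under array weights (0.0162) and not with the replicate number as a block, where the SE fell from 1.00 to 0.59 (0.0658). At 0 hr, with 8 reads in 6 libraries, the difference was 0.65 log2 (limma adjusted p = 0.433), and 1.27 without S80A replicate 1 (0.0487), where no library held more than 4 reads.

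ICAM1, the ligand of LFA-1 and Mac-1, was already present before LPS and was higher in S80A cells at both times, while the difference in its LPS response did not pass the test. At 0 hr the wild-type libraries had 641, 807 and 1127 scaled reads and the S80A libraries 2056, 4728 and 5632. At 3 hr the wild-type libraries had 39273, 44447 and 43530 and the S80A libraries 112801, 138662 and 129494. The groups did not overlap at either time, and S80A replicate 1 was again the lowest of its group.

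After LPS the wild-type mean rose from 858 ± 247 to 42417 ± 2761, a ratio of 49.4, and the S80A mean from 4139 ± 1860 to 126986 ± 13112, a ratio of 30.7 (SD, n = 3). The authors' deposited table gave log2 fold changes of 5.47 (authors' adjusted p = 1.26e-67) and 4.80 (authors' adjusted p = 1.39e-52). ICAM1 alone took 0.917% to 0.958% of the reads on listed genes in wild-type libraries at 3 hr and 1.74% to 2.32% in S80A libraries.

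ICAM1 was higher in S80A cells by 2.18 ± 0.45 log2 (SE) at 0 hr (limma adjusted p = 0.0197) and by 1.58 ± 0.19 at 3 hr (limma adjusted p = 0.00164). The 0 hr call did not hold without wild-type replicate 1 (adjusted p = 0.0650), without wild-type replicate 2 (0.0671) or without S80A replicate 2 (0.0739). Without S80A replicate 1 the differences were 2.63 at 0 hr and 1.66 at 3 hr. Its LPS response differed by -0.60 log2 with a 95% interval of -1.67 to 0.46 (limma adjusted p = 0.597), which leaves room for a response up to 1.67 log2 smaller in S80A cells. Without S80A replicate 1 at 0 hr that difference was -1.05 (0.0922).

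ICAM4, the Landsteiner-Wiener glycoprotein, had few reads at 0 hr in both genotypes and more in S80A cells at 3 hr. At 0 hr it was at 4.33, 18.5 and 12.1 scaled reads in wild-type cells and at 12.0, 17.1 and 14.7 in S80A cells. At 3 hr it was at 143, 85.1 and 108 in wild-type cells and at 423, 454 and 420 in S80A cells. The genotypes overlapped at 0 hr and were well apart at 3 hr, where S80A replicate 1 was close to the other two.

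The wild-type mean of ICAM4 rose from 11.6 ± 7.10 to 112 ± 29.3 scaled reads and the S80A mean from 14.6 ± 2.56 to 432 ± 19.2 (SD, n = 3). The authors' deposited table gave log2 fold changes of 3.13 (authors' adjusted p = 9.82e-19) and 4.74 (authors' adjusted p = 1.63e-45). At 3 hr the S80A level was 1.97 ± 0.24 log2 (SE) higher (limma adjusted p = 0.00168), a ratio of means of 3.85, and at 0 hr the difference was 0.48 ± 0.50 (limma adjusted p = 0.492), or -0.05 without wild-type replicate 1. The LPS response of ICAM4 differed by 1.49 log2 with an unadjusted 95% interval of 0.27 to 2.71, and did not pass after adjustment (limma adjusted p = 0.160, range 0.0147 to 0.317 over 23 alternatives). It passed without wild-type replicate 1 at 0 hr, the library with the lowest ICAM4 value, with 2.02 log2 and an adjusted p of 0.0206.

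Since ICAM4 lies just downstream of ICAM1, its reads were also expressed per read of ICAM1, a ratio that no scaling changes. At 0 hr ICAM4 reads were 0.676%, 2.29% and 1.07% of ICAM1 reads in wild-type libraries and 0.581%, 0.361% and 0.261% in S80A libraries. At 3 hr they were 0.365%, 0.192% and 0.248% in wild-type and 0.375%, 0.328% and 0.324% in S80A libraries. The share was thus highest in the wild-type libraries at 0 hr, did not overlap between genotypes at that time, and overlapped at 3 hr. Whether reads that run past the end of ICAM1 enter the count of ICAM4 was not tested. ICAM5, the next gene, which encodes the neuronal adhesion molecule telencephalin, had wild-type means of 9.23 ± 4.42 before and 70.9 ± 18.0 after LPS, and S80A means of 49.1 ± 36.1 and 503 ± 283 (SD, n = 3). Its level was 2.61 ± 0.53 log2 (SE) higher in S80A cells at 3 hr (limma adjusted p = 0.00761), and S80A replicate 1, at 183, was far below replicates 2 and 3, at 606 and 721. All 3 adjoining ICAM genes were therefore higher in S80A cells after LPS.

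**Figure D2:**
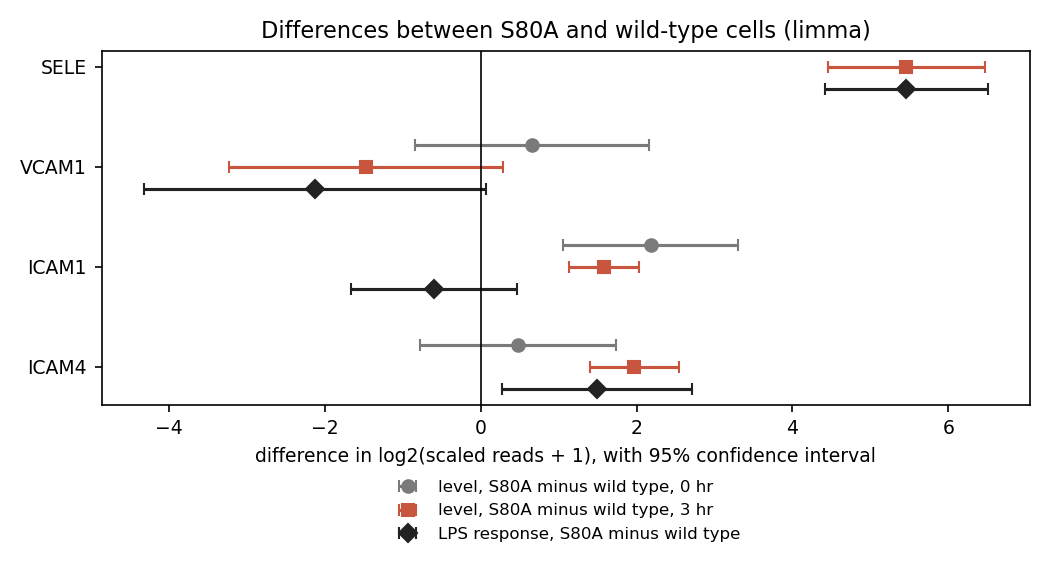
Differences in log2(scaled reads + 1) between S80A and wild-type cells for each gene, with 95% confidence intervals from limma, for the level at 0 hr, the level at 3 hr and the response to LPS. No 0 hr point is drawn for SELE, which had no read at that time. Both SELE intervals lie far above 0, the ICAM1 and ICAM4 levels at 3 hr lie above 0, and both VCAM1 intervals at 3 hr and for the response reach across 0.

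Over the 4 genes, SELE, ICAM1 and ICAM4 were higher in S80A cells at 3 hr by limma, and none was lower. Limma called 29.2% of the 3281 listed genes higher and 17.7% lower at that time. At 0 hr ICAM1 alone was called, as higher, where 20.1% of listed genes were higher and 10.6% lower. For the LPS response SELE alone was called, as larger, among 1562 genes of which 2.69% were larger and 1.79% smaller in S80A cells. The median difference at 3 hr was 1.77 log2 for the 4 genes and 0.19 for all listed genes. The level and response comparisons use the same 3 hr libraries and are not separate evidence.

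The background of genotype differences depended on the scaling. Factors computed on the listed genes by the TMM or the upper quartile method shifted the median 3 hr difference of all listed genes by -0.20 and -0.38 log2. The share of called genes that were higher in S80A cells at 3 hr went from 62.2% to 51.8% and 40.6%, at 0 hr from 65.5% to 51.8% and 50.1%, and for the response from 60.0% to 56.6% and 37.8%. Under the upper quartile factors, which lowered the median most, the 3 hr differences were 5.04 log2 for SELE, 1.18 for ICAM1, 1.57 for ICAM4 and -1.87 for VCAM1, with the same calls as under the authors' scaling.

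**Figure D3:**
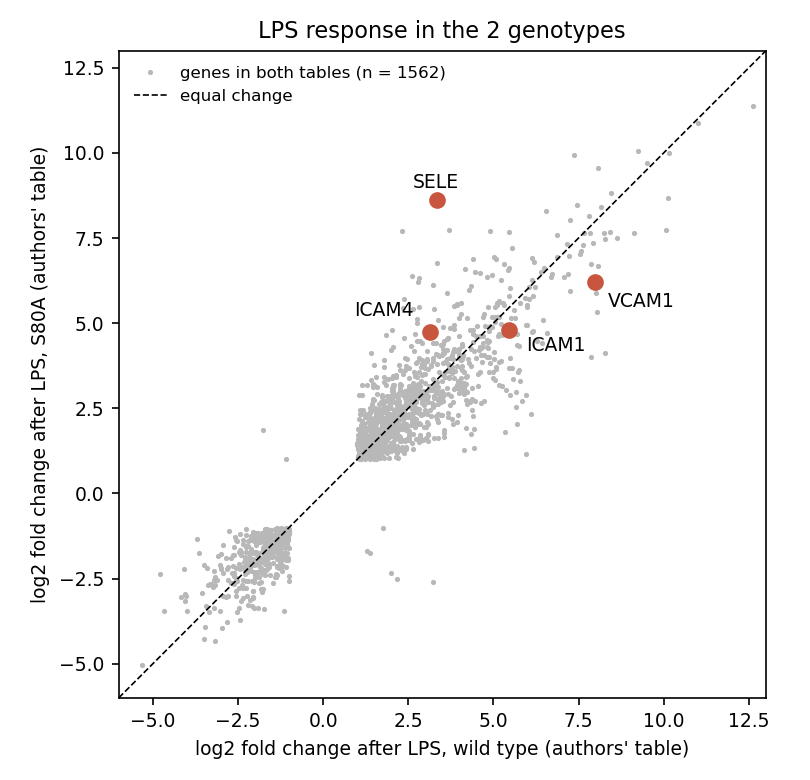
Log2 fold change after LPS in S80A cells against that in wild-type cells, from the authors' deposited tables, for the 1562 genes in both tables (grey) and the 4 adhesion molecules (red), with a dashed line of equal change. SELE lies far above the line (3.36 against 8.62), ICAM4 above it (3.13 against 4.74), and ICAM1 (5.47 against 4.80) and VCAM1 (7.99 against 6.22) below it.

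The balance of the 4 mRNAs therefore differed between the genotypes after LPS. For every 100 reads of VCAM1, SELE had 3.15, 0.613 and 0.710 reads in the wild-type libraries at 3 hr and 433, 111 and 82.6 in the S80A libraries. To compare levels between genes, scaled reads were divided by the length of annotated exons in kilobases. In wild-type cells at 3 hr the order was ICAM1 (11445 ± 745 scaled reads per kb), VCAM1 (104 ± 33.2), ICAM4 (78.6 ± 20.5) and SELE (1.71 ± 1.18) (SD, n = 3). VCAM1 and ICAM4 overlapped in that order, with ranges of 74.0 to 140 and 59.7 to 100.4, and the other neighbours did not. In S80A cells at 3 hr the order was ICAM1 (34265 ± 3538), ICAM4 (303 ± 13.5), SELE (76.8 ± 15.7) and VCAM1 (49.3 ± 37.0). SELE and VCAM1 overlapped there, with ranges of 60.4 to 91.8 and 10.6 to 84.2. With the length of the longest coding transcript in place of all exons, VCAM1 stood at 96.8 and SELE at 91.3 in S80A cells. In wild-type cells VCAM1 then stood at 205 (145 to 274) and ICAM4 at 80.7 (61.2 to 103), without overlap. The place of VCAM1 in the S80A order thus depends on the transcript assumed. In wild-type cells VCAM1 came next after ICAM1 under both lengths, and only its overlap with ICAM4 changed.

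Partners of the adhesion molecules were taken from lists drawn up by role, with earlier results of these data known. Of 22 other vascular and leukocyte adhesion molecules, 4 were called higher after LPS in each genotype by the authors and none lower, where 8.24% and 8.67% of all tested genes were higher and 5.11% and 5.67% lower. These were ICAM5, CD58, which is the ligand of CD2 on T cells, PVR, the poliovirus receptor, and NECTIN2, its relative. Their log2 fold changes in the authors' deposited tables ran from 1.36 to 2.60 in wild-type and from 1.92 to 3.09 in S80A cells. At 3 hr CD58 was 1.24 ± 0.27 log2 (SE) higher in S80A cells (limma adjusted p = 0.0101) and PVR 1.18 ± 0.22 higher (0.00565), while NECTIN2 differed by 0.19 ± 0.23 (0.522). PVR had wild-type means of 698 ± 36.3 before and 1809 ± 374 after LPS, and S80A means of 758 ± 51.2 and 4051 ± 337 (SD, n = 3). Its LPS response was 1.06 log2 larger in S80A cells, with a limma adjusted p of 0.0235 over all listed genes. Over that set 464 response differences were called, against 70 over the 1562 shared genes used for the 4 adhesion molecules. The partner calls are therefore not like those of the 4 genes, although ICAM4 and VCAM1 did not pass there either (limma adjusted p = 0.0946 and 0.168).

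Among 14 integrin counter-receptors and activators the authors listed ITGA4 alone, the α4 chain that binds VCAM-1. Over all tested genes, 8.24% were called higher and 5.11% lower in wild-type cells, and 8.67% and 5.67% in S80A cells. ITGA4 fell in wild-type cells by an authors' log2 fold change of -1.01, from 1994 ± 81.0 to 984 ± 67.0 scaled reads, and its S80A means were 3061 ± 731 and 1860 ± 376 (SD, n = 3). It was 0.90 ± 0.22 log2 (SE) higher in S80A cells at 3 hr (limma adjusted p = 0.0151). ITGA4 was listed through its wild-type fall alone, so this test is not independent of its listing. The ligand VCAM1 and this receptor chain had differences of opposite sign, of which that of VCAM1 did not pass. The chains of LFA-1 and Mac-1, which bind ICAM-1, were in neither table and were not analysed here.

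Of 13 selectin ligands and the enzymes that build their sugars, the authors' deposited tables held 5 that rose and 2 that fell for wild type, and 5 that rose and 3 that fell for S80A. Over all tested genes, 8.24% rose and 5.11% fell for wild type, and 8.67% rose and 5.67% fell for S80A. SELPLG, which encodes the selectin ligand PSGL-1, fell in wild-type cells from 1012 ± 119 to 392 ± 52.4 scaled reads. In S80A cells SELPLG was at 207 ± 77.9 and 105 ± 17.0, lower than in wild-type cells with differences of -2.34 log2 at 0 hr (limma adjusted p = 0.00609) and -1.89 at 3 hr (0.00148). FUT7, the fucosyltransferase that completes sialyl Lewis x, fell in both genotypes, by authors' log2 fold changes of -2.09 and -2.57, and was lower in S80A cells at 3 hr with a difference of -0.73 (limma adjusted p = 0.0446). FUT4, another fucosyltransferase, was lower in S80A cells at 0 hr and at 3 hr, with differences of -1.65 and -1.34 (limma adjusted p = 0.00413 and 0.00965). SELPLG was listed through its wild-type fall alone and FUT4 through its S80A rise alone. Their genotype tests are therefore not independent of that listing. CD44, a hyaluronan receptor that can carry selectin ligands, rose in both genotypes by authors' log2 fold changes of 3.51 and 3.48. It was 0.70 ± 0.19 log2 (SE) higher in S80A cells at 3 hr (limma adjusted p = 0.0218). B4GALT1, a galactosyltransferase, rose in both genotypes and was higher in S80A cells by 1.09 log2 at 0 hr and 1.33 at 3 hr (limma adjusted p = 0.00348 and 0.00225). CHST2, a sulfotransferase, rose by 3.95 in wild-type and 2.09 in S80A cells in the authors' tables. Its response was smaller in S80A cells, with a difference of -1.91 log2 (limma adjusted p = 0.0146 over all listed genes, not the shared genes alone). CD34 rose in both genotypes from under 1 to 16.4 ± 4.96 and 27.6 ± 12.5 scaled reads (SD, n = 3). GCNT1 and ST3GAL6 fell in S80A cells and ST3GAL4 rose in wild-type cells in the authors' tables, and none of these sugar enzymes differed between genotypes by limma at 0 hr or 3 hr. In all, 2 of the 10 listed genes of this group were higher and 4 lower in S80A cells at 3 hr, where 29.2% of all listed genes were higher and 17.7% lower. CD44 and B4GALT1 had differences of the same sign as SELE, and SELPLG, FUT4, FUT7 and CHST2, the last at -0.87 log2 (limma adjusted p = 0.0371), of the opposite sign.

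Of 18 genes for the cortical link of ICAM-1 and VCAM-1 or for their shedding, the authors called 1 higher after LPS for wild type and 2 for S80A, and none lower, near the 8.24% and 8.67% of all tested genes called higher. ADAM17, the sheddase that releases VCAM-1 and ICAM-1 from the surface, was higher in S80A cells by 1.11 log2 at 0 hr and 0.99 at 3 hr (limma adjusted p = 0.0353 and 0.0109). MSN, which encodes the membrane linker moesin, was 0.59 log2 higher at 3 hr (limma adjusted p = 0.0298), and RHOG, a small GTPase, differed by 0.16 (0.497). MSN and RHOG were listed through their S80A response alone, and ADAM17 through its wild-type response alone. Their genotype tests reuse libraries that admitted them and are not independent of that listing.

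**Figure D4:**
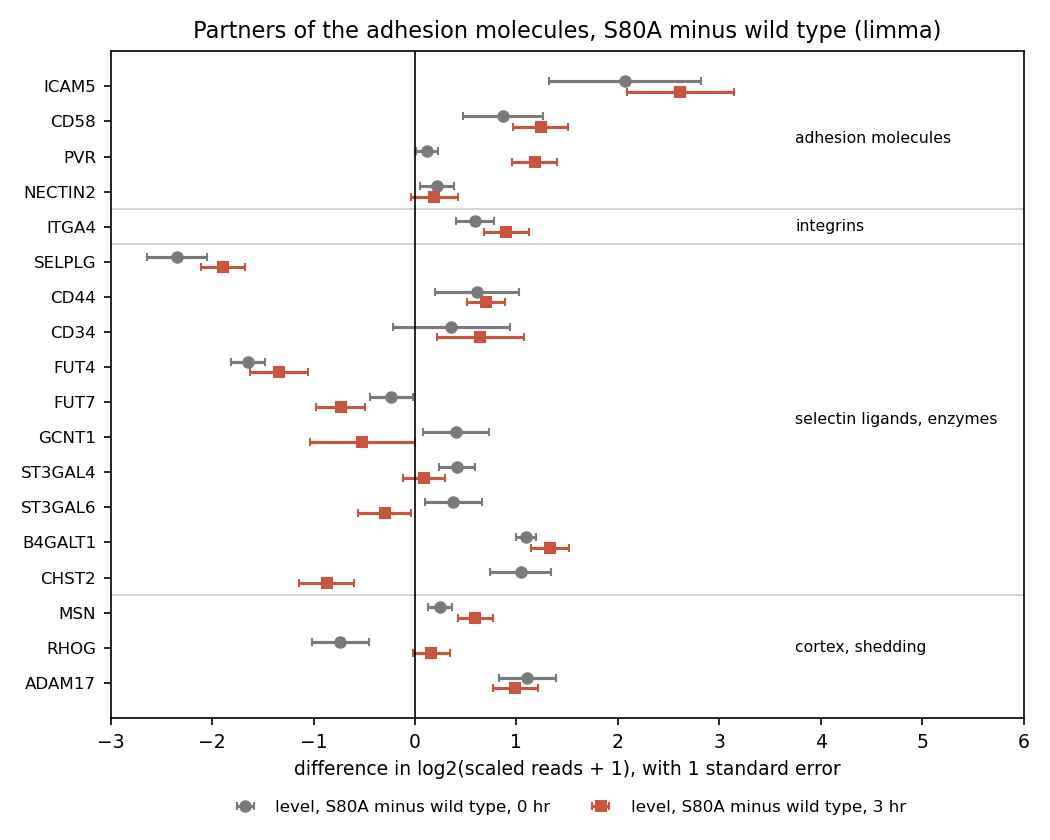
Differences in log2(scaled reads + 1) between S80A and wild-type cells at 0 hr (grey) and 3 hr (red), with 1 standard error from limma, for the listed partner genes in their 4 groups. SELPLG and FUT4 lie below 0 at both times, with SELPLG at -2.34 and -1.89, and ICAM5, B4GALT1 and ADAM17 lie above 0.

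The genes with the most similar profiles were found by the root mean square distance between log2(scaled reads + 1) values over the 12 libraries, each centred on its own mean. Candidates were 2878 listed genes with a mean of at least 20 scaled reads. Nearest to SELE were CSF2, which encodes the growth factor GM-CSF, EFNA1, which encodes ephrin-A1, and PDGFB, a growth factor chain, with distances of 0.53, 0.78 and 0.92 log2. CSF2 had no read at 0 hr, and its 3 hr means were 16.0 ± 18.7 scaled reads for wild type and 368 ± 221 for S80A (SD, n = 3). Nearest to VCAM1 were TNF, IFNB1 and HCAR3, at distances of 0.86, 0.88 and 0.91. Those 3 had lower S80A than wild-type means at 3 hr, as VCAM1 did. Wild-type and S80A means were 278 ± 61.3 and 198 ± 19.2 for HCAR3, a receptor for hydroxylated fatty acids. They were 15401 ± 1200 and 13280 ± 2747 for TNF, and 259 ± 107 and 208 ± 36.0 for IFNB1. The genes were picked for a profile like that of VCAM1, and these differences were not tested.

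ICAM1 had BCL2A1, a survival gene of the BCL2 family, the microRNA host transcript MIR155HG and CRIM1 as its nearest genes, at 0.36, 0.44 and 0.44. BCL2A1 had wild-type means of 77.5 ± 19.2 before and 4124 ± 144 after LPS, and S80A means of 281 ± 168 and 9399 ± 1120 (SD, n = 3). ICAM4 had LOC100288911, TMCC2 and RARRES1, at 0.39, 0.41 and 0.51, and ICAM1 was not among them. Pearson correlations of these 12 pairs ran from 0.973 to 0.992 over 12 libraries that share the 4 groups, and they are a description only.

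Markers of other cell types were checked because these adhesion genes are known from endothelium. Of 22 endothelial markers, 4 were in the tables, namely KDR, FLT1, ESAM and MMRN2. Over all genes, 3281 of an estimated 17486 tested were listed. CDH5, VWF, TEK and CLDN5 were not among the listed genes and were not analysed here. The summed level of the 4 was 206 to 263 scaled reads in wild-type libraries at 0 hr and 145 to 159 at 3 hr. In S80A libraries it was 4778 to 7909 at 0 hr and 1574 to 4152 at 3 hr. Most of that sum was MMRN2, with 0 hr means of 148 ± 17.8 for wild type and 6407 ± 1605 for S80A (SD, n = 3). FLT1, a VEGF receptor, was called higher after LPS in both genotypes by the authors. Its means were 2.19 ± 0.395 and 44.1 ± 8.62 scaled reads for wild type and 52.0 ± 27.8 and 212 ± 152 for S80A (SD, n = 3). A limma refit did not call its rise in S80A cells (adjusted p = 0.0569). The other listed markers were called lower where called. By authors' log2 fold changes MMRN2 fell in wild-type (-1.02) and S80A cells (-1.15), ESAM in wild-type cells (-1.38) and KDR in S80A cells (-2.91). The sum of the markers was higher in S80A libraries at both times, as SELE was at 3 hr, and the part of these markers in the SELE, ICAM1 and ICAM4 differences was not tested. None of 11 fibroblast and epithelial markers was listed. Of the macrophage and monocyte markers, CD14, the LPS co-receptor, had means of 2489 ± 180 and 875 ± 194 scaled reads at 0 and 3 hr for wild type and of 3995 ± 2024 and 1479 ± 396 for S80A (SD, n = 3). CD163, a scavenger receptor, had a lowest group mean of 785 scaled reads, and CD68 was not analysed here.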

How the data were processed

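Stranded TruSeq libraries of poly(A) RNA were read from 1 end over 75 bases, per the labels' protocols. GRCh38 is the build in the submitters' processing notes, which also name HTSeq, DESeq2, Cuffdiff, StringTie, HISAT and FastQC without versions or order. The authors deposited 1 table per genotype with a signal per library, a log2 fold change after LPS, and a p-value before and after adjustment. That deposited signal is read counts over 1 size factor (0.834 to 1.29) per library, since all values, 100% to within 0.01 reads, were whole multiples of a step. Both tables hold only genes past the authors' thresholds, 1562 of them shared.

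The 4 genes and the lists were chosen with earlier results of these data known. Named are the 4 genes, every listed partner gene, and 3 nearest profiles per gene among genes with a mean of at least 20, as well as ICAM4's neighbour and the markers. limma 3.58.1 in R 4.3.3 tested log2(scaled reads + 1) with Benjamini-Hochberg adjustment at 0.05, over 1562 shared genes for the interaction (all 4 groups) and over 3281 genes for genotype differences (6 libraries each). Partner genes were tested over 3281 genes. A partner gene listed through 1 genotype alone entered through libraries that its genotype tests also use. limma was tested on simulated data. edgeR 4.0.16 and DESeq2 1.42.0 on the recovered reads, and other pseudocounts, filters, scalings and left-out libraries, were alternatives. Same-numbered libraries deviated together for the LPS comparisons, with correlations of 0.153 to 0.343 in wild-type and 0.196 to 0.299 in S80A cells. They also did so for the genotypes at 0 hr (0.188 to 0.259), so the numbers pair these libraries. Between the genotypes at 3 hr the correlations ran from 0.0640 to 0.196, with 2 of 3 pairs over 0.1. The main limma tests left this pairing out, and the replicate number as a block was an alternative. NECTIN2 was matched through a RefSeq synonym.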

Additional observations from a re-analysis of the deposited data

Results flagged for a closer look

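The LPS response of SELE differed between the genotypes, by 5.46 log2 (S80A minus wild type) in the test of the difference itself (limma adjusted p = 7.17e-05). With no read at 0 hr in either genotype, this value is the same as the 3 hr difference (limma adjusted p = 0.000756). It is that difference again, and its smaller p-value is not stronger evidence. The edgeR fit called the 3 hr difference (adjusted p = 0.000244) but not the difference in response. All 3 S80A libraries at 3 hr, at 277 to 421 scaled reads, were above all 3 wild-type libraries, at 4.28 to 14.1, and no library had a read at 0 hr.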

How the results depend on the processing

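The LPS responses of the 4 genes in each genotype, and the 3 hr genotype differences of SELE, ICAM1, ICAM4 and VCAM1, kept their direction and side of the threshold under every alternative run. The LPS response of SELE differed by 5.49 log2 in edgeR with an adjusted p of 1.00, and by 5.33 in DESeq2 with 0.0342; the cause was not tested. For ICAM4 the response difference passed with DESeq2 (1.63), a pseudocount of 5 (1.60) and array weights (1.73), and for VCAM1 with array weights (-2.14) and without replicate 1 of S80A at both times (-1.86); the cause was not tested. With single libraries left out, the response differences ran from 5.17 to 5.93 for SELE, from -2.74 to -1.25 for VCAM1, from -1.05 to -0.32 for ICAM1 and from 1.08 to 2.02 for ICAM4. The 0 hr differences ran from 1.90 to 2.63 for ICAM1, from 0.25 to 1.27 for VCAM1 and from -0.05 to 0.88 for ICAM4. With the longest coding transcript as length, VCAM1 stood at 0.174, 205, 0.562 and 96.8 scaled reads per kb (wild type 0 and 3 hr, S80A 0 and 3 hr) and ICAM1 at 13043 and 39049 at 3 hr. The replicate number as a block changed no call of the 4 genes, with response differences of 5.46 for SELE (adjusted p = 0.000444), -2.13 for VCAM1 (0.0658), -0.60 for ICAM1 (0.414) and 1.49 for ICAM4 (0.152). Among all genes, 70 response differences were called, against 155 with DESeq2, 393 with array weights, 464 over all listed genes and 36 to 187 with libraries left out. At 0 hr 1007 were called, and 497 to 1200 with 1 library left out. A few reads limit SELE in wild-type cells and VCAM1 at 0 hr.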

Other observations

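Among the listed endothelial markers, KDR, which encodes the VEGF receptor VEGFR2, was at 2.50 ± 0.928 scaled reads at 0 hr and 8.89 ± 3.87 at 3 hr in wild-type libraries, and at 58.4 ± 26.2 and 6.63 ± 3.88 in S80A libraries (SD, n = 3). It was listed through its S80A response alone, so no test of a difference in response is given. FLT1, another VEGF receptor, was 3.87 log2 higher in S80A cells at 0 hr (limma adjusted p = 0.00673), and its difference at 3 hr was 1.88 (0.0529). MMRN2, a matrix glycoprotein of vessels, was 5.18 log2 higher in S80A cells at 3 hr (limma adjusted p = 0.000649).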
